A study of Homo sapiens with 10 samples.

Results

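BBC3, PMAIP1, BAX, FAS, TNFRSF10A, TNFRSF10B, AEN, TP53I3, TP53INP1 and ZMAT3 are p53 target genes linked to cell death, and their RNA levels are described here in MCF10A cells after oncogenic HRas and after Nutlin-3a. The 10 genes were taken by symbol from the deposited count tables, where each was found among 26256 genes of the table of untreated cells and among 55736 genes of the table of the Nutlin-3a experiment. All 10 passed the filter on low counts in both tables, as did 14376 and 13529 genes in all, and their lowest count in any library was 120 and 48.

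MCF10A is a human breast epithelial line that is not transformed. In the first experiment, untreated parental MCF10A cells (n = 2) were compared with untreated cells of the same line given the G12V HRas oncogene (G12V, n = 2) by a lentivirus, together with a GFP vector to track transduction, and selected with hygromycin. No empty-vector control is among the samples, so effects of transduction and selection cannot be told apart from those of HRas, and whether G12V is a pool or a clone is not given in the sources used here. In the second, parental MCF10A cells received 10 µM Nutlin-3a (n = 3), a small molecule that keeps MDM2 from binding p53, or the solvent DMSO (n = 3), each for 4 h. Poly(A) RNA was sequenced from biological replicates, with total counts per library of 21538593 to 23683975 in the first experiment and 15453226 to 17378734 in the second.

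p53 is a transcription factor that binds a DNA element made of a pair of half-sites and switches on genes that stop the cell cycle, repair DNA or promote death. On the mitochondrial route, the BH3-only proteins PUMA (BBC3) and NOXA (PMAIP1) block survival proteins of the BCL2 family, and BAX forms pores in the outer membrane. On the other route, FAS and the TRAIL receptors encoded by TNFRSF10A and TNFRSF10B start caspase activation at the cell surface, while AEN is a nuclease, TP53I3 an oxidoreductase, TP53INP1 a cofactor of p53 and of autophagy, and ZMAT3 an RNA-binding zinc finger protein.

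The label of G12V was checked first. HRAS had 72.6 and 65.9 CPM (counts scaled to a library of standard size) in the MCF10A libraries and 631 and 515 CPM in the G12V libraries, which gives a log2FC (log2 fold change) of 3.05 with SE 0.23. Its FDR, the Benjamini-Hochberg adjusted p-value over all genes in the quasi-likelihood fit of edgeR, was 0.00165. Of 5 epithelial markers, 3 were DE and lower in G12V cells and 0 after Nutlin-3a (0 at an unadjusted p under 0.05 and 0 DE with DESeq2), where DE means an FDR under 0.05 with a log2FC beyond 0.5 in size. The immune markers PTPRC and CD3E had at most 2 counts in any library of either table, while CD68 was DE and higher in G12V cells. Of the endothelial markers, CDH5 and VWF had at most 16 counts and PECAM1 had 37 to 82 counts in the first experiment (log2FC 0.35, SE 0.43). Of 4 fibroblast markers LUM was DE and higher in G12V cells at no more than 28 counts, and COL1A1, at 76 to 254 counts, had a log2FC of -1.14 (SE 0.43, edgeR FDR 0.166). DCN, at 557 to 1324 counts in the first experiment, had a log2FC of 0.28 (SE 0.39, edgeR FDR 0.728), and COL1A2 had at most 1 count. In the second, DCN had 12.9, 109.4 and 94.5 CPM with DMSO and 14.1, 136.9 and 115.3 CPM with Nutlin-3a. The part of these markers in the results was not tested. In RNA from whole cultures, fewer cells of a kind and less RNA per cell cannot be told apart.

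To show what the genes share in sequence, the 5000 bases around each gene's annotated start in hg19, 2000 before it and 3000 from it on, were searched on both strands for the p53 consensus element. It is a pair of adjoining 10-base half-sites, each with a C and a G in its core, and at most 2 mismatches were allowed outside these core bases. A match was found for 6 of the 10 genes, against 3.91% of 26256 windows of the same length in the table, which share bases where genes adjoin. The elements that can be shown are given 5′ to 3′ on the strand of the gene, with the core C and G of both half-sites in capitals.

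ZMAT3: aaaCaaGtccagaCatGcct
FAS: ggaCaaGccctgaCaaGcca
BAX: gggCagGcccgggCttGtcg
AEN: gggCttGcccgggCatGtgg
PMAIP1: gggCttGtttaccCaaGtct

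The ZMAT3 element, at chr3:178787976-178787995 on the minus strand, lies 1661 bases into the gene in intron 1 of its canonical transcript and had 0 mismatches. Of all windows, 18 (0.0686%) held such a match. The other elements had 2 mismatches each. Those of FAS (chr10:90751066-90751085, plus strand) and BAX (chr19:49458470-49458489, plus strand) lie in intron 1 of the canonical transcripts, 778 and 353 bases past the start, and in an exon of 2 of 16 FAS and 1 of 12 BAX transcripts. The AEN element (chr15:89164537-89164556, plus strand) lies 10 bases past the start given in the table and outside the transcripts of the GENCODE annotation, and that of PMAIP1 (chr18:57566781-57566800, plus strand) lies upstream, at -411 bases. TNFRSF10B had a match in intron 1, 546 bases past its start. BBC3, TNFRSF10A, TP53I3 and TP53INP1 had none with these letters in this window. A match describes the letters only and is not a measured binding site.

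**Figure D1:**
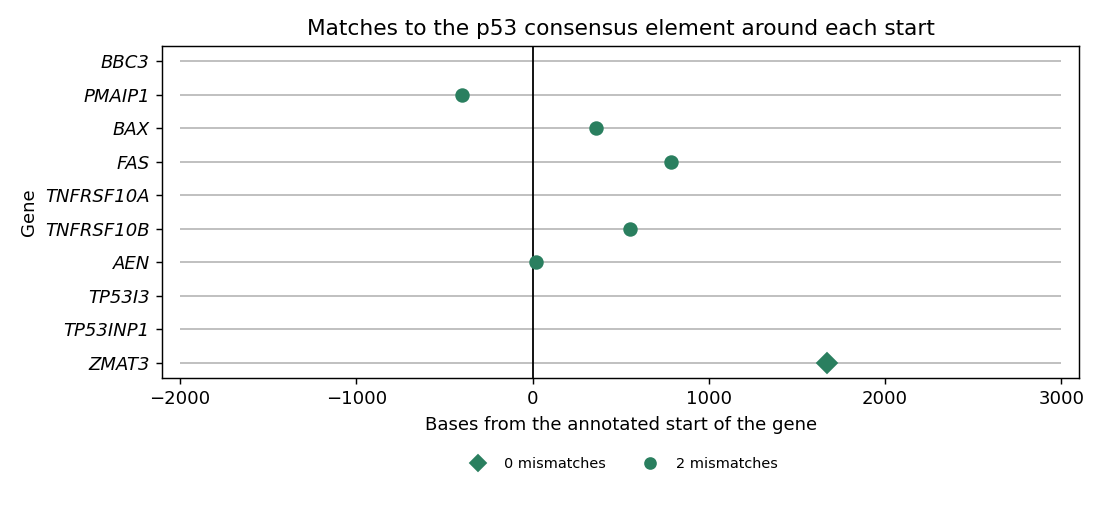
Position of each match to the p53 consensus element, in bases from the annotated start of the gene (x axis, negative is upstream), for the 10 genes (y axis). The grey line is the window searched, the diamond a match with 0 mismatches and the circles matches with 2. The 6 matches lie between -411 and 1661 bases.

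The element without mismatches and the one that lies before the start of its gene in the table are also shown in context, as 100 bases on the strand of the gene, with the element in capitals: ZMAT3 at chr3:178787936-178788035 on the minus strand, and PMAIP1 at chr18:57566741-57566840 on the plus strand.

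ZMAT3: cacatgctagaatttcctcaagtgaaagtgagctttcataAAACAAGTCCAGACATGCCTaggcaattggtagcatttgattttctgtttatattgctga
PMAIP1: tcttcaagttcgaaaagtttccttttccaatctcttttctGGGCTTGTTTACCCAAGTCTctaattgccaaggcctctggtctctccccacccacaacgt

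Promoter windows of 300 bases from RefSeq (GRCh38.p14) were found for 7 of the 10 genes. An element without a spacer was present for AEN and in 1 window of FAS, against 0.285% of 35116 windows.

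The Nutlin-3a experiment asked how the genes respond when p53 is freed from MDM2. All 10 genes had a log2FC above 0, where 51.8% of the tested genes did, and their median was 0.63 against 0.0066 over all tested genes. BBC3 and TP53INP1 led the list and were DE and higher, a count of 2 of 10 where 0.155% of all genes tested were DE and higher. Same-numbered DMSO and Nutlin-3a libraries varied together, and with the number as a block 7 of the 10 genes were DE and higher, against 0.702% of all genes. These were BBC3, TP53INP1, FAS, AEN, TNFRSF10B, ZMAT3 and BAX, and in the same 7 genes every Nutlin-3a library lay above every DMSO library, against 3.70% of all genes. Without the block, the count of 2 became 1, TP53INP1, when any library but DMSO replicate 3 was left out.

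**Figure D2:**
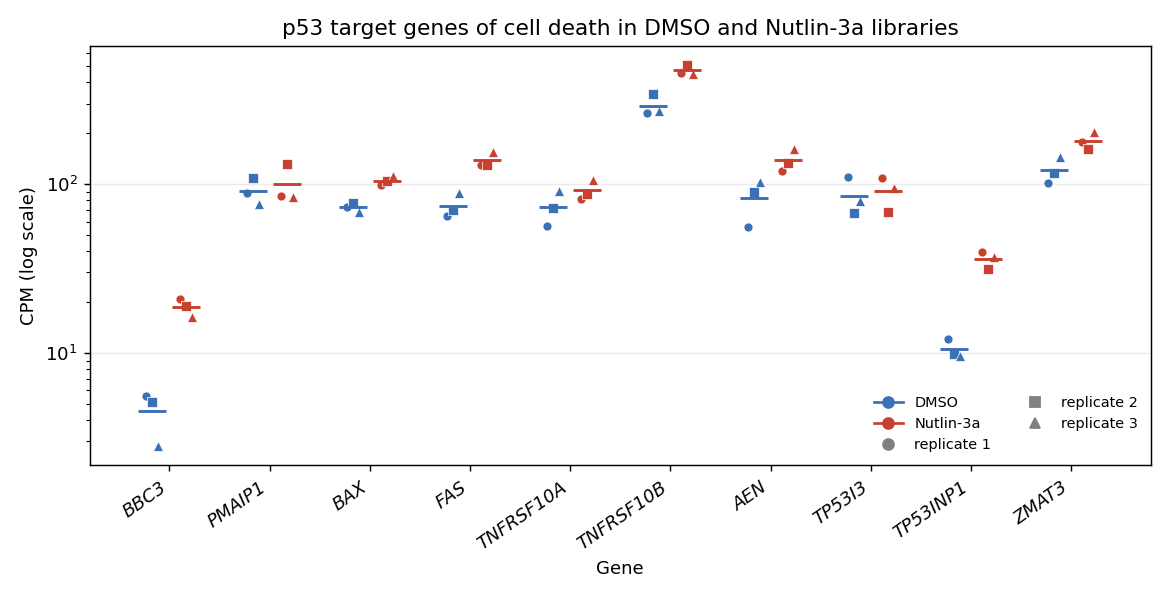
Level of each gene in CPM (y axis, log scale) in the DMSO libraries (blue) and the Nutlin-3a libraries (red), with 1 point per library, a shape per replicate number and a line at the group mean. The groups do not overlap in 7 genes and overlap in PMAIP1, TNFRSF10A and TP53I3.

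Among the genes of the mitochondrial route, BBC3 (chromosome 19, 47724081 to 47736023, minus strand) had the largest fold. It had 5.59, 5.15 and 2.80 CPM in the DMSO libraries 1 to 3 and 20.9, 18.98 and 16.4 CPM in the Nutlin-3a libraries. The lowest Nutlin-3a library was thus well above the highest DMSO library, and the level of DMSO replicate 3 was below that of the other DMSO libraries. The log2FC was 2.05 (SE 0.26, edgeR FDR 0.0303), the 11th highest of 13529 genes, and 2.07 (SE 0.15, edgeR FDR 1.07e-05) with the block. Without the block BBC3 was DE in 1 of the 6 fits that each left out a library, the one without DMSO replicate 3 (FDR 0.0306), and in the others its edgeR FDR ran from 0.0694, with Nutlin-3a replicate 3 left out, to 0.150, with DMSO replicate 2 left out.

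BAX (chromosome 19, 49458117 to 49465052, plus strand) had 73.4, 77.7 and 68.0 CPM with DMSO and 98.6, 104.5 and 111.5 CPM with Nutlin-3a. The groups were apart and each was narrow. The log2FC of 0.52 (SE 0.10) had an edgeR FDR of 0.214 without the block and of 0.00752 with it.

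PMAIP1 (chromosome 18, 57567180 to 57571538, plus strand), the other BH3-only gene, had 88.8, 109.0 and 76.2 CPM with DMSO and 85.5, 130.8 and 83.4 CPM with Nutlin-3a. The groups overlapped, and replicate 2 was the highest library of each. Its log2FC was 0.13 (SE 0.20), and with the block 0.11 with a 95% interval from -0.07 to 0.30 and an edgeR FDR of 0.661. On a linear scale this interval runs from 0.953-fold to 1.23-fold. PMAIP1 thus had the lowest log2FC of the list but for TP53I3, and BBC3 the highest. The window of PMAIP1 holds a match to the p53 element shown above.

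Of the death receptors, FAS (chromosome 10, 90750414 to 90775542, plus strand) had 65.1, 70.1 and 88.3 CPM with DMSO and 129.6, 130.5 and 154.7 CPM with Nutlin-3a. The lowest treated library lay above all DMSO libraries. The log2FC was 0.89 (SE 0.14, edgeR FDR 0.0806), and 0.90 (SE 0.077, edgeR FDR 5.64e-05) with the block, under which FAS was DE. FAS overlaps ACTA2 on the opposite strand by 734 bases in this annotation, and ACTA2 had 129 to 296 counts.

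TNFRSF10B (chromosome 8, 22877646 to 22926692, minus strand) was the most abundant of the genes before scaling by length, with 263.6, 341.3 and 269.1 CPM in the DMSO libraries and 453.1, 507.2 and 451.5 CPM in the Nutlin-3a libraries. The groups did not overlap. The log2FC was 0.69 (SE 0.13, edgeR FDR 0.187) and 0.70 (SE 0.074, edgeR FDR 2.88e-04) with the block. In CPM, TNFRSF10B took 179 of the 461 CPM by which the means of the 10 genes differed in sum, ahead of FAS with 63.7 CPM, whereas BBC3, the gene of the largest fold, took 14.2 CPM.

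TNFRSF10A (chromosome 8, 23047965 to 23082639, minus strand), the other TRAIL receptor, had 56.4, 72.5 and 91.5 CPM with DMSO and 81.6, 87.8 and 106.3 CPM with Nutlin-3a. DMSO replicate 3 lay above the treated replicates 1 and 2, so the groups overlapped, but within each number the treated library was higher, by 0.53, 0.28 and 0.22 on the log2 scale. The log2FC was 0.32 (SE 0.18), and 0.34 (SE 0.086, edgeR FDR 0.0773) with the block, so TNFRSF10A was not DE in either fit. RP11-1149O23.2, on the opposite strand, overlaps it by 224 bases and had 86 to 126 counts.

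TP53INP1 (chromosome 8, 95938200 to 95961639, minus strand) had the next largest fold after BBC3. Its DMSO libraries held 12.2, 9.82 and 9.63 CPM and its Nutlin-3a libraries 39.4, 31.3 and 37.0 CPM. All treated libraries were far above all DMSO libraries. The log2FC was 1.77 (SE 0.15, edgeR FDR 0.00410), the 16th highest of all genes tested, and it was DE in all 16 alternatives tried, the omission of each library included. NDUFAF6 spans the gene on the opposite strand in this annotation and had 308 to 345 counts.

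AEN (chromosome 15, 89164527 to 89175513, plus strand) had 55.8, 89.8 and 103.0 CPM with DMSO and 118.8, 133.5 and 162.1 CPM with Nutlin-3a. Replicate 1 was the lowest and replicate 3 the highest library of each group, and the groups did not overlap. The log2FC was 0.74 (SE 0.22, edgeR FDR 0.763), and 0.77 (SE 0.099, edgeR FDR 0.00138) with the block.

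ZMAT3 (chromosome 3, 178735011 to 178790067, minus strand), whose intron 1 holds the element without mismatches, had 101.3, 116.9 and 145.0 CPM with DMSO and 177.1, 161.5 and 202.8 CPM with Nutlin-3a. The groups did not overlap. Its log2FC of 0.58 (SE 0.15) had an edgeR FDR of 0.543 without the block and of 0.00357 with it.

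TP53I3 (chromosome 2, 24300303 to 24308085, minus strand) had 110.2, 67.7 and 78.9 CPM with DMSO and 109.3, 68.0 and 94.5 CPM with Nutlin-3a. Libraries of the same number were close in numbers 1 and 2, and the groups overlapped throughout. The log2FC was 0.08 (SE 0.22), and with the block 0.09 with a 95% interval from -0.10 to 0.27, or 0.935-fold to 1.204-fold, and an edgeR FDR of 0.765. FAM228B overlaps TP53I3 on the opposite strand over 7783 bases and had 24 to 41 counts.

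**Figure D3:**
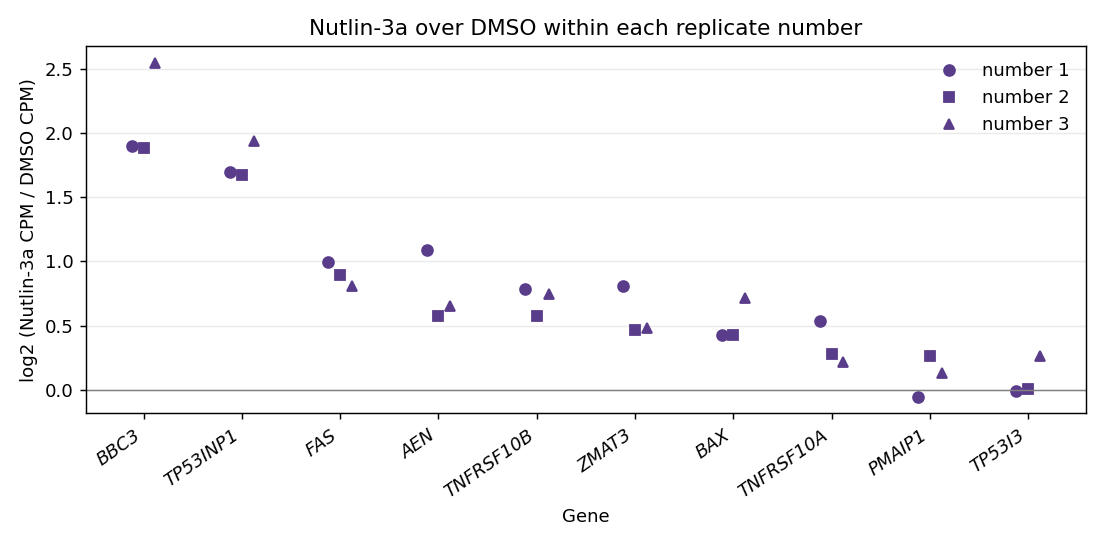
Log2 ratio of the Nutlin-3a level to the DMSO level in CPM within each replicate number (y axis), by gene (x axis, ordered by the mean ratio), with a shape per number. All 3 ratios lie above 0 in 8 of the 10 genes, BBC3 runs from 1.88 to 2.55, and PMAIP1 and TP53I3 each have 1 ratio just below 0.

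Within replicate numbers the ratios of each gene had the following ranges. The log2 ratios of TP53INP1 ran from 1.67 to 1.94 and those of FAS from 0.81 to 0.99, whereas those of AEN ran from 0.57 to 1.09 and those of BBC3 from 1.88 to 2.55. The highest ratio of BBC3 came from number 3, where the DMSO level was lowest, and that of AEN from number 1, where its DMSO level was also lowest.

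The comparison of G12V with MCF10A asked how the same genes stand in cells that carry the oncogene. They did not move together. The lowest log2FC was -1.04 and the highest 1.22, around a median of 0.24 (-0.0011 over all genes tested), and 6 of the 10 were above 0, as were 49.9% of the genes tested. PMAIP1 was DE and higher, and TP53I3 was DE and lower, so 2 of the 10 genes were DE, where 11.0% of the genes tested were, 5.01% higher and 5.95% lower. The groups did not overlap in 7 genes, 4 higher (PMAIP1, BAX, TNFRSF10A and TNFRSF10B, background 27.5%) and 3 lower (FAS, TP53I3 and TP53INP1, background 27.4%). In either direction 54.8% of the genes tested did not overlap. With the replicate number as a block 7 of the 10 were DE, against 28.9% of all genes tested. PMAIP1, BAX, TNFRSF10B and AEN were higher, and TP53I3, TP53INP1 and ZMAT3 were lower. The count of 2 DE genes was 0 without MCF10A replicate 1, a fit in which 0 of 14883 genes were DE and 3 of the 10 had an unadjusted p under 0.05, and 1, TP53I3, without MCF10A replicate 2 or without G12V replicate 2, and the median was 0.05 without MCF10A replicate 1 and 0.03 without G12V replicate 2.

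**Figure D4:**
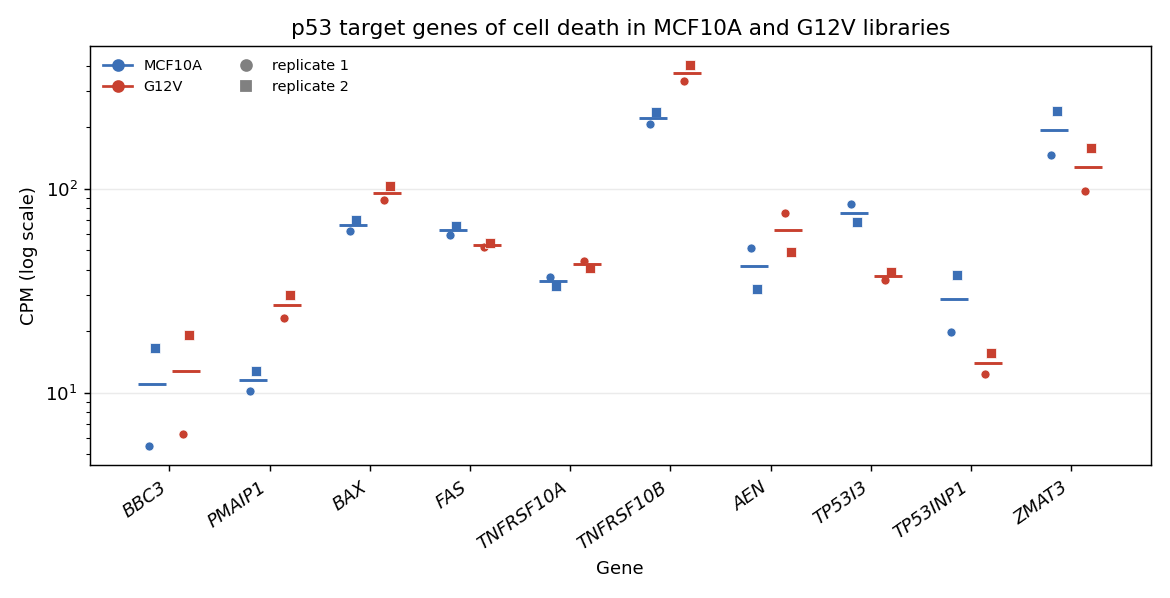
Level of each gene in CPM (y axis, log scale) in the MCF10A libraries (blue) and the G12V libraries (red), with 1 point per library, a shape per replicate number and a line at the group mean. PMAIP1 is higher and TP53I3 lower in both G12V libraries, and the libraries of BBC3 differ by 3.04 and 3.06 times within the groups.

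Of the mitochondrial route, PMAIP1 had 10.2 and 12.8 CPM in the MCF10A libraries and 23.3 and 30.2 CPM in the G12V libraries. Both G12V libraries were far above both MCF10A libraries. The log2FC was 1.22 (SE 0.26, 95% interval 0.58 to 1.86, edgeR FDR 0.0365). It was not DE without MCF10A replicate 1 (log2FC 1.08, FDR 0.222), without MCF10A replicate 2 (1.39, FDR 0.0548) or without G12V replicate 2 (1.02, FDR 0.0798), all in edgeR, and was DE without G12V replicate 1 (1.39, edgeR FDR 0.0113).

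BAX had 62.2 and 69.9 CPM in MCF10A and 88.1 and 102.6 CPM in G12V cells, higher in both G12V libraries. It was not DE on groups alone, with a log2FC of 0.53 (SE 0.18, edgeR FDR 0.132). With the number as a block it was DE, at 0.53 (SE 0.13, edgeR FDR 0.00898). BBC3 had 5.45 and 16.6 CPM in MCF10A and 6.29 and 19.2 CPM in G12V cells. In both groups replicate 2 was about as far above replicate 1, so the spread within groups exceeded the difference between them. The log2FC was 0.21 (SE 0.68, 95% interval -1.45 to 1.87). Within both numbers BBC3 was slightly higher in G12V cells. With the number as a block its log2FC was 0.21 (SE 0.21, edgeR FDR 0.479) and it was not DE. Without the block, single libraries set its sign. It was -0.37 without MCF10A replicate 1 and -0.81 without G12V replicate 2. It was 1.22 without MCF10A replicate 2 and 0.80 without G12V replicate 1.

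Among the receptors, TNFRSF10B had 206.8 and 236.6 CPM in MCF10A and 335.5 and 402.8 CPM in G12V cells. The G12V libraries were both above the MCF10A libraries. The log2FC of 0.74 (SE 0.21) had an FDR of 0.0814 in the edgeR fit. TNFRSF10B was DE with edgeR's exact test (FDR 0.0294) and with DESeq2 (FDR 0.0275). With the number as a block it was also DE, at 0.73 (SE 0.13, edgeR FDR 0.00142). RHOBTB2, on the opposite strand, overlaps it by 63 bases and had 1010 to 3897 counts. TNFRSF10A had 37.0 and 33.2 CPM in MCF10A and 43.95 and 40.9 CPM in G12V cells, and FAS 59.4 and 65.1 CPM against 51.9 and 53.8 CPM. TNFRSF10A was thus above and FAS below MCF10A in both G12V libraries, by small amounts that did not pass the test, with log2FC values of 0.27 (SE 0.19, edgeR FDR 0.458) and -0.24 (SE 0.17, edgeR FDR 0.474). FAS overlaps ACTA2, which had 224 to 436 counts, by 860 bases in this annotation.

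TP53I3 had 83.9 and 68.4 CPM in MCF10A and 35.5 and 38.9 CPM in G12V cells. The highest G12V library was well below the lowest MCF10A library. The log2FC was -1.03 (SE 0.20, 95% interval -1.51 to -0.56, edgeR FDR 0.0251). It was DE in 13 of 14 alternatives, the exception being the fit without MCF10A replicate 1, with a log2FC of -0.86 and an edgeR FDR of 0.187. FAM228B, which overlaps on the opposite strand, had 34 to 46 counts in these libraries.

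TP53INP1 had 19.8 and 37.7 CPM in MCF10A and 12.3 and 15.7 CPM in G12V cells. Both G12V libraries were below the MCF10A libraries, which differed widely from each other. Its log2FC of -1.04 was as large as that of TP53I3, but with an SE of 0.36 and an edgeR FDR of 0.133 it was not DE. Without MCF10A replicate 2 its log2FC was -0.50. With the number as a block TP53INP1 was DE, at -0.98 (SE 0.19, edgeR FDR 0.00229).

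ZMAT3 and AEN varied by replicate number more than by group. ZMAT3 had 145.9 and 240.7 CPM in MCF10A and 97.7 and 158.3 CPM in G12V cells, with replicate 2 the higher in each group. AEN had 51.1 and 32.3 CPM in MCF10A and 75.8 and 49.0 CPM in G12V cells, with replicate 1 the higher in each. Neither was DE on groups alone, with log2FC values of -0.59 (SE 0.34, edgeR FDR 0.342) for ZMAT3 and 0.58 (SE 0.31, edgeR FDR 0.321) for AEN. Within both numbers ZMAT3 was lower and AEN higher in G12V cells. With the number as a block both were DE, ZMAT3 at -0.59 (SE 0.13, edgeR FDR 0.00475) and AEN at 0.58 (SE 0.14, edgeR FDR 0.00707). Without the block, single libraries moved both. Over the fits that each left out a library, ZMAT3 ran from -0.98 (without G12V replicate 2) to -0.19 (without MCF10A replicate 2) and AEN from 0.23 (without G12V replicate 1) to 0.98 (without MCF10A replicate 1), and neither was DE in any of them.

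**Figure D5:**
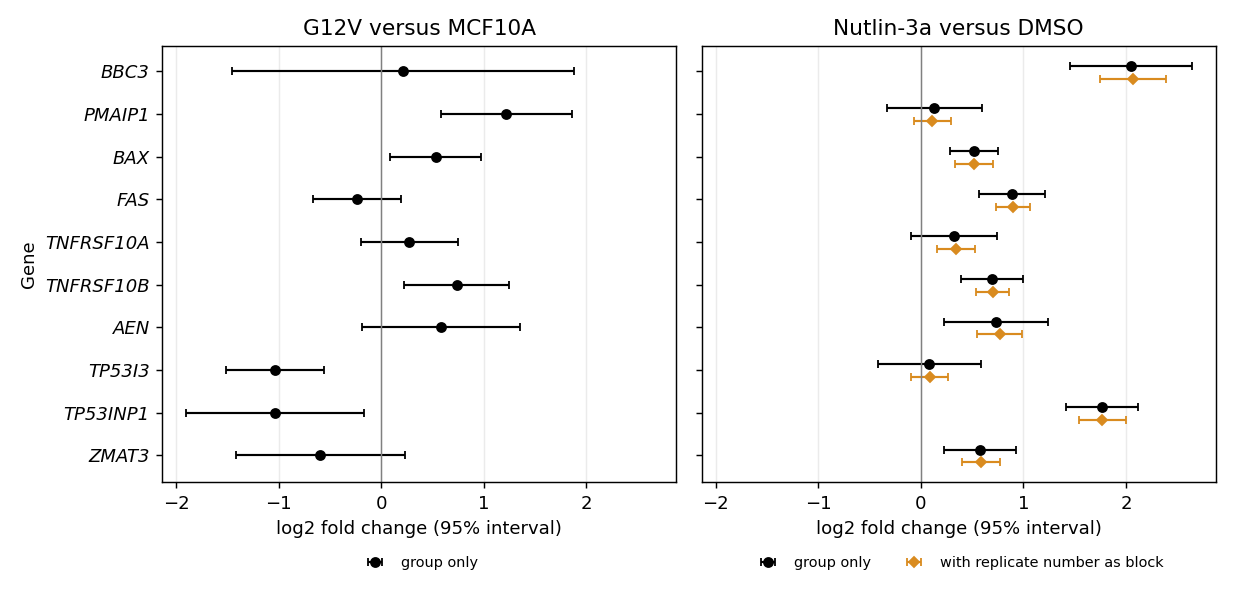
Log2 fold change (x axis, with 95% intervals) of each gene (y axis) in G12V against MCF10A (left) and in Nutlin-3a against DMSO (right), from the fit on groups alone (black) and, on the right, with the replicate number as a block (orange). On the right all 10 estimates are above 0, and on the left 6 are above and 4 below.

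Set side by side, without a test, since the comparisons were fitted on separate tables with different annotations, the genes that were DE in one comparison were not DE in the other, unless G12V was also fitted with the block, when 5 were DE in both. Of those 5, BAX, TNFRSF10B and AEN were higher in both. TP53INP1 and ZMAT3 were lower in G12V cells and higher after Nutlin-3a. PMAIP1 and TP53I3, DE in G12V cells at 1.22 and -1.03, had values of 0.13 and 0.08 after Nutlin-3a, the lowest of the list there. BBC3 and TP53INP1, DE after Nutlin-3a at 2.05 and 1.77, had values of 0.21 and -1.04 in G12V cells. Without the block, 6 of the 10 genes were DE in neither comparison and 0 in both, and 1 of the 12073 genes tested in both tables was DE in both. With the block for Nutlin-3a, where the number was taken to pair the libraries, TNFRSF10A alone was DE in neither. Again 0 of the 10 were DE in both, against 19 of the 12073. Whether the responses differ was not tested.

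Levels can be compared between genes only per length of transcript, given here as CPM per kb of a main transcript (mean ± SD). In MCF10A cells (n = 2) BAX had the highest level, 83.0 ± 6.83 CPM per kb, followed by TNFRSF10B at 55.5 ± 5.28 and TP53I3 at 46.1 ± 6.63 CPM per kb, which did not differ beyond their spread. FAS (24.3 ± 1.58), ZMAT3 (21.6 ± 7.50), AEN (13.6 ± 4.32) and TNFRSF10A (13.1 ± 1.01 CPM per kb) formed a middle range in which the spreads of neighbouring genes overlapped. PMAIP1 (6.06 ± 0.982), BBC3 (5.96 ± 4.25) and TP53INP1 (5.12 ± 2.26 CPM per kb) were lowest, and their spreads overlapped. In G12V cells (n = 2) TNFRSF10B reached 92.3 ± 11.9 CPM per kb, while TP53I3 was at 22.5 ± 1.49 CPM per kb and PMAIP1 at 14.1 ± 2.58 CPM per kb.

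With DMSO (n = 3) BAX at 91.9 ± 6.08 and TNFRSF10B at 72.9 ± 10.8 CPM per kb led again, and BBC3 at 2.45 ± 0.812 and TP53INP1 at 1.88 ± 0.253 CPM per kb were lowest. After Nutlin-3a (n = 3) BBC3 reached 10.2 ± 1.22 and TP53INP1 6.41 ± 0.742 CPM per kb, still the lowest of the 10 genes. The genes with the largest folds were therefore those with the lowest levels in the DMSO libraries. Per length, the largest gains were those of TNFRSF10B, 44.8 CPM per kb, and BAX, 40.02 CPM per kb, against 7.71 CPM per kb for BBC3.

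Other genes of p53 and of the death routes were read from lists of their own. Over all genes tested, 11.0% were DE in G12V cells, and DESeq2 gave 2307 of 14376. After Nutlin-3a 0.155% were DE and higher, and 0.702% with the block. Of 20 targets that act in arrest, feedback or repair, 7 were DE and higher after Nutlin-3a and 15 with the block, with a median log2FC of 0.90, and the largest were BTG2 (2.85, SE 0.14), GDF15 (2.63, SE 0.15) and MDM2 (2.54, SE 0.18). In G12V cells 4 of the 20 had an unadjusted p under 0.05, against 25.6% of all genes tested, and DESeq2 gave 2 higher and 2 lower. With the block 3 were DE and higher and 3 lower, where 28.9% of all genes tested were DE. By edgeR's quasi-likelihood test without it 0 were DE and higher and 1 was DE and lower. The lower gene was SFN, an inhibitor of the cell cycle, at 775 and 630 CPM in MCF10A against 154 and 142 CPM in G12V cells (log2FC -2.25, SE 0.23, edgeR FDR 0.00418). The median of the 20 was -0.04, and it ran from -0.27 without G12V replicate 2 to 0.23 without MCF10A replicate 2. GDF15, a secreted factor, had a log2FC of 2.46 without G12V replicate 1 and of -1.85 without G12V replicate 2. Each of these fits leaves 1 G12V library, so their calls are not given. GDF15 is named here in G12V cells after its values were seen. The fit without MCF10A replicate 1, with 1 library left in that group, made no calls over all genes, SFN included. After Nutlin-3a, leaving out a library gave 5 or 6 DE genes of this list.

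Of 15 other targets linked to death, 0 were DE after Nutlin-3a in edgeR without the block and 3 with it, all higher. Without the block 3 had an unadjusted p under 0.05, and 2 were DE with DESeq2. All 15 had a log2FC above 0 (median 0.27), where 51.8% of all genes tested did. This count was 13 with library totals alone and 13 or 14 when a library was left out. The 3 genes DE with the block were PHLDA3, an inhibitor of AKT, at 1.16 (SE 0.070, edgeR FDR 2.53e-06 with the block), TNFRSF10D, a decoy receptor for TRAIL, at 0.79 (SE 0.072), and PIDD1, a death domain protein, at 0.69 (SE 0.13). In G12V cells 14 of these were tested. With the block 3 were DE and higher and 2 lower, where 28.9% of all genes tested were DE. Without it 3 were DE, where 11.0% of all genes tested were. BID, which links the death receptors to mitochondria, had 34.7 and 34.1 CPM in MCF10A and 57.7 and 59.3 CPM in G12V cells (log2FC 0.77, SE 0.18, edgeR FDR 0.0474). PERP, a membrane protein of desmosomes, had 703 and 1086 CPM against 132 and 165 CPM (log2FC -2.59, SE 0.30, edgeR FDR 0.00621), and TNFRSF10C, another decoy receptor for TRAIL, had 1.86 and 2.42 CPM against 0.470 and 0.491 CPM (log2FC -2.15, SE 0.41). PERP and TNFRSF10C were lower in each G12V library, and BID was higher.

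The 2 lists of pathway genes leave out the 10 genes above. Of 7 genes of the death receptor pathway 5 were tested after Nutlin-3a, and of 14 genes of the mitochondrial pathway all were tested. Both medians were -0.03. In both lists 0 were DE in either edgeR fit. Of all genes tested, 0.170% were DE without the block and 1.22% with it, so 0 does not set lists this short apart. In both lists 0 genes had an unadjusted p under 0.05 without the block (0 and 3 with it), where 3.42% of all genes tested did without it. With DESeq2 or edgeR's exact test 0 were DE. The ligand FASLG had at most 1 count in any of these libraries and the ligand TNFSF10 at most 11, too few to be tested. In G12V cells 6 of the receptor pathway genes were tested and BID was the 1 that was DE, where 11.0% of all genes tested were. TNFSF10, at 17 to 281 counts, had 3.09 and 12.4 CPM in MCF10A and 0.727 and 1.25 CPM in G12V cells. Its log2FC was -2.97 (SE 0.74, edgeR FDR 0.0575), and it was DE with the block (edgeR FDR 1.68e-04), as were 28.9% of all genes tested. With the block 1 of the 6 receptor pathway genes tested was DE and higher and 1, TNFSF10, was lower. TNFSF10 is named here after its values were seen. Of the mitochondrial genes 13 were tested. With the block 4 were DE and higher and 1 lower in G12V cells, where 28.9% of all genes tested were DE. Without it 1 was DE, where 11.0% of all genes tested were. This was BCL2L1, which encodes a survival protein. It had 89.2 and 77.3 CPM in MCF10A and 152 and 198 CPM in G12V cells (log2FC 1.07, SE 0.21, edgeR FDR 0.0277). The fit without MCF10A replicate 1 leaves 1 library in that group and made no calls over all genes. Its lack of calls in these 4 lists is thus not particular to them. BCL2L1 was also not DE without MCF10A replicate 2 (edgeR FDR 0.101) or G12V replicate 2 (edgeR FDR 0.0691), and TNFRSF10C was DE only without G12V replicate 1. BID was not DE in any fit that left out a library, and PERP was DE in the 3 others.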

How the data were processed

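The 10 genes and the other gene lists were chosen with earlier results of these data known. RNA-seq libraries were made from poly(A) RNA. The authors deposited raw counts per gene, made with HTSeq from TopHat alignments to hg19. The annotation and the strand setting are not given in the sources used here, so reads of overlapping genes cannot be told apart. From the counts, each table was fitted alone in edgeR 4.0.16 (R 4.3.3, limma 3.58.1) with filterByExpr, TMM factors, the quasi-likelihood test and Benjamini-Hochberg adjustment over all genes tested, with group as the only term and a prior count of 0.125. CPM use TMM-scaled library sizes, and standard errors and 95% intervals come from the fit. Fits were tested on simulated counts. The labels number the libraries of each group and state no pairing. In the Nutlin-3a experiment the deviations of same-numbered libraries from their group means had correlations of 0.62, 0.60 and 0.64 (other pairs -0.47 to -0.19). Deviations cancel out within a group, so the signs of the other pairs are not a separate result. The number was taken to pair the libraries and was also used as a block. Besides the 10 genes, the text names HRAS and every DE gene of the cell death lists, for G12V without the block. It also names the 3 DE genes of largest absolute log2 fold change of the arrest list. A further gene of this rule is not reported here. Alternatives were other scaling factors and filters, DESeq2 1.42.0, edgeR's exact test, other thresholds, the block and the omission of each library. Start coordinates are written 1-based. Python 3.11.15 with pandas 2.3.3, numpy 2.4.6 and matplotlib 3.10.9 was used for the sequence search and the figures.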

Additional observations from a re-analysis of the deposited data

How the results depend on the processing

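For G12V against MCF10A, 2 of the 10 genes were DE. An unadjusted p under 0.05 with a fold above 1.3 gave 5 (3676 of all genes), DESeq2 and edgeR's exact test each gave 3 (2307 and 2536 of all genes), and leaving out 1 library gave 0 to 2, with 0 without MCF10A replicate 1 (0 of all genes). The replicate block gave 7, 4 higher and 3 lower, against 4158 DE genes in all (28.9%) in place of 1575. The labels of these samples share a number and state no pairing, but the deviations of same-numbered libraries had a correlation of 0.49 over 14376 genes. With only 2 pairs, whether the number pairs them was not tested. With the block in both comparisons, BAX, TNFRSF10B, AEN, TP53INP1 and ZMAT3 were DE in both, as were 57 of 12073 genes. Of these, TP53INP1 and ZMAT3 went in opposite directions, lower in G12V cells and higher after Nutlin-3a. For Nutlin-3a against DMSO, 2 were DE, 6 without a filter (99 of all genes), 5 with DESeq2 (91), 5 with edgeR's exact test (84), 7 with those looser thresholds (332 of all genes), 7 with the replicate block (165), and 1 to 2 when 1 library was left out (7 to 11). Directions turned when single libraries were left out of the fits on groups alone. BBC3 in G12V cells ran from -0.81 (G12V replicate 2 left out) to 1.22 (MCF10A replicate 2), with -0.37 for MCF10A replicate 1. After Nutlin-3a, PMAIP1 ran from -0.11 (Nutlin-3a replicate 2 left out) to 0.28 (DMSO replicate 2), and TP53I3 from -0.075 (Nutlin-3a replicate 1) to 0.31 (DMSO replicate 1), with -0.059 for DMSO replicate 2. The causes were not tested. The median of the 10 genes in G12V cells was 0.05 without MCF10A replicate 1 and 0.03 without G12V replicate 2. Of 140 log2 fold changes recomputed for G12V, 124 kept their direction and call, and of 160 for Nutlin-3a, 132 did. Counting error is largest for BBC3 with DMSO, whose lowest count was 48.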

Other observations

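The parental line was sequenced untreated in one experiment and with DMSO in the other, and the level of some genes stood apart between the tables, which were counted on different annotations and normalized separately, so no test was made. PMAIP1 had 10.2 and 12.8 CPM in the untreated MCF10A libraries and 76.2 to 109.0 CPM in the DMSO libraries, a gap wider than its difference between G12V and MCF10A cells. TP53INP1 had 19.8 and 37.7 CPM untreated against 9.63 to 12.2 CPM with DMSO. BAX, at 62.2 and 69.9 CPM against 68.0 to 77.7 CPM, and TP53I3, at 83.9 and 68.4 CPM against 67.7 to 110.2 CPM, were closer. Solvent, experiment and annotation cannot be told apart between the tables.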
